A study of Mus musculus with 12 samples.

Results

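The genes described here are 10 interferon-linked genes: the ADP-ribosyltransferases Parp9, Parp10, Parp12 and Parp14, the ubiquitin ligases Dtx3l, Trim30a, Herc6 and Rnf213, and Xaf1 and Rtp4, which belong to neither family. They were taken by name from 55471 genes counted by RNA-seq in 4 untreated mouse melanoma cell lines, and the choice was made with measured levels known. Which values were used is not recorded; the genes are treated here as chosen for high counts in MeVa2.2.dOVA against MeVa2.2. They form 2 pairs, MeVa2.1 with MeVa2.1.dOVA and MeVa2.2 beside MeVa2.2.dOVA, and each line gave 3 of the 12 libraries. All are labelled wild type in genotype and derived from subcutaneous tumours of the skin, and no library received a treatment. The labels do not spell out dOVA, the suffix that separates the lines of each pair; in the study's title MeVa2.1.dOVA is described as refractory to immunity. Each line stands for itself alone: no other line of its kind enters, and the labels do not say whether a line is a single clone. They also do not say whether the 3 libraries of a line came from separate cultures, so the p-values reflect nothing beyond the spread among the libraries at hand, which may be technical.

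Type I interferon acts on cells through its receptor and the JAK kinases, which activate STAT proteins; these join IRF9 and bind interferon-stimulated response elements in the promoters of interferon-stimulated genes. Among the induced proteins are PARPs that attach ADP-ribose to other proteins, and ligases that attach ubiquitin or the ubiquitin-like protein ISG15. In melanoma cells, as in other tumour cells, this programme is known for raising antigen presentation and for restricting viruses.

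Parp9 and Dtx3l lie head to head on mouse chromosome 16 (GRCm38). Parp9 spans chr16:35938470-35972605 on the plus strand and Dtx3l spans chr16:35926511-35939151 on the minus strand. The annotated genes overlap by 682 bases, of which 458 are exonic in both, and Parp14 lies 54966 bases beyond Dtx3l. The library kit keeps strand, but the strand setting of the counting is not given in the sources used here, so the split of reads between Parp9 and Dtx3l is uncertain in the shared stretch. Rtp4 is on the same chromosome. Parp12 and Herc6 are on chromosome 6, Rnf213 and Xaf1 on chromosome 11, Parp10 on chromosome 15 and Trim30a on chromosome 7. Parp10 shares 205 exonic bases with Plec, and Trim30a has near-identical Trim30 paralogues, so reads that fit several copies may be missing from its count.

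RefSeq promoter windows (GRCm38.p6, 250 bases before to 50 after a start site) were found for 6 of the 10 genes: Parp12, Dtx3l, Trim30a, Herc6, Rnf213 and Xaf1. A core of the interferon-stimulated response element, GAAA followed by any 2 bases and a further GAAA, was searched on both strands. It matched in 1 of the 6 genes, Trim30a, in both of its windows. The sequences of Trim30a are shown because they are the ones that hold this match, which is in capitals. They run 5′ to 3′ along the minus strand and end 20 bases after the start site.
Trim30a, upstream start site, chr7:104465174-104465443, minus strand: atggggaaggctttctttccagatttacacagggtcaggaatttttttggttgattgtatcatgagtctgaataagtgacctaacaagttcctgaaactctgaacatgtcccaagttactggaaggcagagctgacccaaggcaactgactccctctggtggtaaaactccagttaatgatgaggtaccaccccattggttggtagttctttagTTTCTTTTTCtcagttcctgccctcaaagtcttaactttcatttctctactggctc
Trim30a, downstream start site, chr7:104446106-104446375, minus strand: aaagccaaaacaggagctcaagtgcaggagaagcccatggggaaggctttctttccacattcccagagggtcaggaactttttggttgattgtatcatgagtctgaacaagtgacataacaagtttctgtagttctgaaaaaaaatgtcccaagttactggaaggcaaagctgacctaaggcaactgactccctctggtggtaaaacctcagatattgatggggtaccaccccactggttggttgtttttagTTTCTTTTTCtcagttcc
The start sites lie 19068 bases apart. The match begins 36 bases before the upstream start site and at base 3 after the downstream one. The searched pattern, with any 2 bases in the middle and on either strand, occurs in 1131 of all 32851 promoter windows, or 3.44%. By gene, it occurs in 1079 of 27025. A match describes the letters of these windows and is not a measured binding site.

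The libraries held 16181816 to 35627069 counts in genes, and in each line replicate 3 was the deepest. MeVa2.2 replicate 2 correlated better with MeVa2.2.dOVA replicate 1 (r = 0.969 across genes) than with the other libraries of its own line (0.932 to 0.956). MeVa2.1 replicate 3 likewise correlated better with MeVa2.1.dOVA replicate 3 (0.979) than within its own line (0.969). Of the leukocyte markers, Cd3e, Cd8a, Cd4, Ms4a1, Nkg7 and Ncr1 were at 0 in all 12 libraries. The 20 leukocyte markers summed to 5.56 to 21.1 CPM (counts scaled to the same total of gene counts in every library) in MeVa2.1, to 3.77 to 18.1 in its dOVA counterpart, to 5.21 to 13.4 across MeVa2.2 and to 5.46 to 16.0 across MeVa2.2.dOVA. Against the melanoma label, the melanocyte factor Mitf was present at 8.84 to 24.1 CPM, while Sox10 reached at most 1.12 CPM and Mlana at most 2.66, and both were at 0 in several libraries. The pigment genes Dct, Tyrp1 and Pmel read 15.9, 12.3 and 6.39 CPM in MeVa2.2 replicate 1, and each was lower in the other 11 libraries.

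All 10 genes had their highest mean in MeVa2.2.dOVA, followed by MeVa2.2, with both MeVa2.1 lines below. The 3 libraries of MeVa2.2.dOVA were above the other 9 libraries for 10 of the 10 genes, against 4.59% of the 13985 genes tested. This order is a description, because the genes were chosen with these levels known. In cultures measured in bulk, a smaller share of cells expressing a gene and less RNA per cell cannot be told apart. Per kilobase of exon, Rnf213 was the most abundant of the 10 in MeVa2.2.dOVA, at a mean of 62.5 CPM per kb, and Herc6 the least, at 3.31. Rtp4 stood at 31.8 and Parp12 at 24.2 CPM per kb, and the other 6 genes lay between 8.10 for Xaf1 and 15.4 for Dtx3l. In MeVa2.1 the same scale ran from 0.231 CPM per kb for Xaf1 to 4.46 for Rnf213.

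**Figure D1:**
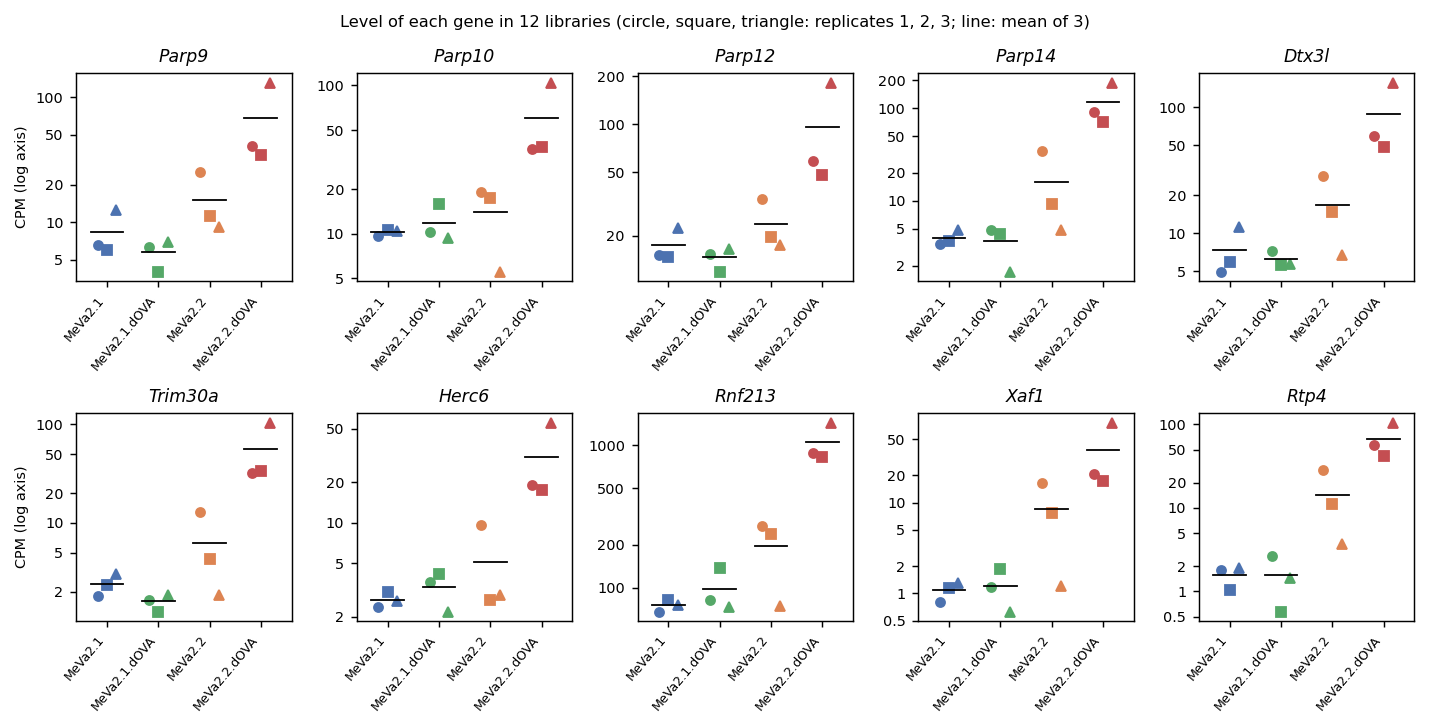
Level of each of the 10 genes in every library, in CPM on a log axis that differs between panels, by cell line; points are libraries (circle, square and triangle for replicates 1, 2 and 3) and the line is the mean of 3. The MeVa2.2.dOVA libraries are the 3 highest in every panel, and the MeVa2.2 libraries are spread from MeVa2.1-like levels to near those of MeVa2.2.dOVA.

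PARP9 has little catalytic activity of its own and works in a complex with DTX3L, a DELTEX-family ubiquitin ligase. Parp9 stood at 6.53, 5.99 and 12.6 CPM in MeVa2.1 (replicates 1 to 3) and 6.30, 4.02 and 6.97 in its dOVA counterpart, against 25.03, 11.3 and 9.17 across MeVa2.2 and 40.8, 34.6 and 131 across MeVa2.2.dOVA. Its partner Dtx3l read 4.97, 5.94 and 11.3 CPM in MeVa2.1 and 7.29, 5.63 and 5.67 in its dOVA counterpart, against 28.2, 14.9 and 6.73 across MeVa2.2 and 59.4, 48.4 and 156 across MeVa2.2.dOVA. For both genes replicate 3 of MeVa2.2 lay within the range of MeVa2.1, so those lines overlapped, while no MeVa2.2.dOVA library overlapped any other. From MeVa2.2 to its dOVA counterpart the mean of Parp9 went from 15.2 ± 8.62 to 68.9 ± 54.1 CPM, and that of Dtx3l from 16.6 ± 10.9 to 88.0 ± 59.4 (SD, n = 3).

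PARP14 is a large macrodomain-containing mono-ADP-ribosyltransferase known as a co-factor of STAT6. Parp14 read 3.46, 3.70 and 4.83 CPM in MeVa2.1 and 4.82, 4.42 and 1.73 in its dOVA counterpart, against 34.4, 9.16 and 4.91 across MeVa2.2 and 90.2, 71.7 and 188 across MeVa2.2.dOVA. Its MeVa2.2 libraries did not overlap those of MeVa2.1, though replicate 3, at 4.91, was just above the highest of MeVa2.1, at 4.83. PARP12 is a zinc-finger mono-ADP-ribosyltransferase with antiviral activity. Parp12 was the PARP with the smallest fold between the MeVa2.2 lines: 17.5 to 34.0 CPM across MeVa2.2 and 48.1 to 183 across MeVa2.2.dOVA, a ratio of means of 4.08. It was already at 14.7 to 22.3 CPM in MeVa2.1 and 11.9 to 16.6 in MeVa2.1.dOVA. PARP10 is a mono-ADP-ribosyltransferase found through its binding to MYC. Parp10 read 9.72, 10.6 and 10.4 CPM in MeVa2.1 and 10.3, 16.0 and 9.38 in its dOVA counterpart, against 19.0, 17.3 and 5.55 across MeVa2.2 and 37.3, 38.4 and 104 across MeVa2.2.dOVA. Replicate 3 of MeVa2.2 was the lowest of all 12 libraries for Parp10, below every library of both MeVa2.1 lines.

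Among the ligases, TRIM30A is a mouse TRIM protein known for restraining inflammatory signalling downstream of Toll-like receptors. Trim30a read 1.84, 2.34 and 3.003 CPM in MeVa2.1 and 1.67, 1.26 and 1.87 in its dOVA counterpart, against 12.8, 4.32 and 1.86 across MeVa2.2 and 32.5, 33.6 and 104 across MeVa2.2.dOVA. It had the highest ratio of means of the 10 genes between the MeVa2.2 lines, at 8.99. HERC6 is the main ligase that attaches ISG15 in the mouse. Herc6 was low in MeVa2.1 (2.38 to 3.07 CPM), MeVa2.1.dOVA (2.19 to 4.13) and MeVa2.2 replicates 2 and 3 (2.69 and 2.89), reached 9.65 in MeVa2.2 replicate 1, and stood at 17.5 to 55.6 in MeVa2.2.dOVA. RNF213 is a very large protein with an ATPase core and a RING domain, known as the susceptibility gene of moyamoya disease. Rnf213 read 68.1, 82.1 and 75.8 CPM in MeVa2.1 and 82.6, 138 and 73.5 in its dOVA counterpart, against 272, 239.7 and 74.0 across MeVa2.2 and 889, 829 and 1446 across MeVa2.2.dOVA. Its MeVa2.2.dOVA libraries varied the least among the 10 genes between replicates 3 and 1, with a ratio of 1.63. In MeVa2.2, 2 libraries were above all of the MeVa2.1 libraries and replicate 3 was within them.

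XAF1 binds XIAP, an inhibitor of caspases, and counteracts it. Xaf1 read 0.81, 1.15 and 1.29 CPM in MeVa2.1 and 1.17, 1.84 and 0.63 in its dOVA counterpart, against 16.5, 7.74 and 1.22 across MeVa2.2 and 20.6, 17.2 and 76.1 across MeVa2.2.dOVA. Here the lines of the MeVa2.2 pair came closest: the lowest MeVa2.2.dOVA library, at 17.2 CPM, was just above MeVa2.2 replicate 1, at 16.5. Xiap itself had mean levels of 121 ± 8.46 CPM in MeVa2.1 and 106 ± 10.2 in its dOVA counterpart, against 133 ± 8.47 across MeVa2.2 and 118 ± 8.58 across MeVa2.2.dOVA (SD, n = 3). RTP4 is a chaperone that carries G-protein-coupled receptors to the cell surface. Rtp4 read 1.78, 1.04 and 1.91 CPM in MeVa2.1 and 2.66, 0.57 and 1.44 in its dOVA counterpart, against 28.3, 11.3 and 3.73 across MeVa2.2 and 56.4, 41.7 and 105.0 across MeVa2.2.dOVA. With Parp14, it was 1 of the 2 genes whose MeVa2.2 and MeVa2.1 libraries did not overlap.

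MeVa2.1.dOVA against MeVa2.1 asks whether the genes differ within the pair that holds the line named in the title. It is the comparison tested for them, on the assumption that the genes were chosen on the MeVa2.2 pair. If levels in the MeVa2.1 lines also entered the choice, the test is not independent of it and its p-values are a description. Of the 10 genes, 0 passed an adjusted p of 0.05 by edgeR's quasi-likelihood test with Benjamini-Hochberg adjustment, where 0.486% of all genes did. At an unadjusted p under 0.05 the count was 0 as well, against 11.2% of all genes, and DESeq2 also called 0. The libraries of these lines overlapped for all 10 genes, while 21.0% of all genes had none that overlapped. The log2 fold change, MeVa2.1.dOVA over MeVa2.1, was positive in 4 genes, where it was positive in 50.3% of all genes, and negative in 6, with a median of -0.11 against 0.00 over all genes.

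The most negative value was that of Trim30a, -0.59 (SE 0.63, 95% interval -1.97 to 0.80, adjusted p = 0.788, edgeR). Parp9 followed at -0.54 (SE 0.52, interval -1.68 to 0.60, adjusted p = 0.763, edgeR). The most positive was Rnf213, 0.37 (SE 0.41, interval -0.53 to 1.28, adjusted p = 0.795, edgeR), whose highest library in this pair was MeVa2.1.dOVA replicate 2. Xaf1 had the widest interval, -1.73 to 1.97 around 0.12, with 15 to 46 counts per library in these lines. The other 6 genes lay between -0.27 for Dtx3l and 0.29 for Herc6. The interval of each of the 10 genes included 0, and the sign of 5 of them, Parp10, Parp14, Dtx3l, Xaf1 and Rtp4, turned when 1 library was left out.

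Replicate numbers paired the libraries of these lines by their correlation, and with the number as a block the adjusted p of the 10 genes ran from 0.564 for Parp9 to 0.974 for Xaf1 (edgeR). The block was fitted over all 12 libraries, with the effect of a number shared by all lines. The numbers did not pair the libraries of MeVa2.2 and MeVa2.2.dOVA, so the blocked values are not a paired test of these lines alone. At replicates 1, 2 and 3 the ratio of MeVa2.1.dOVA to MeVa2.1 was 0.965, 0.671 and 0.554 for Parp9 and 0.909, 0.539 and 0.623 for Trim30a, the 2 genes that were lower at every number. Their blocked log2 fold changes were -0.53 (SE 0.45) and -0.62 (SE 0.66). All 10 genes had a ratio below 1 at replicate 3, from 0.358 for Parp14 to 0.969 for Rnf213, while 8 were above 1 at replicate 1 and 5 at replicate 2. The share of all genes was not counted at each number, so these counts are a description.

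Of the fibroblast markers in this pair, 8 of 10 had negative log2 fold changes, with a median of -1.74, while Col1a1 (0.27) and Col1a2 (0.34) were positive. Of these markers edgeR called Dcn lower, where 0.386% of all genes were called lower. With the block it called 4 lower, Fap, Dcn, Postn and Thy1, where it called 364 of the 13985 genes in either direction. The 10 markers summed to 2695 to 4399 CPM in MeVa2.1 and to 2195 to 4718 in MeVa2.1.dOVA, so the sums overlapped. The part of these markers in the values of the 10 genes was not tested.

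**Figure D2:**
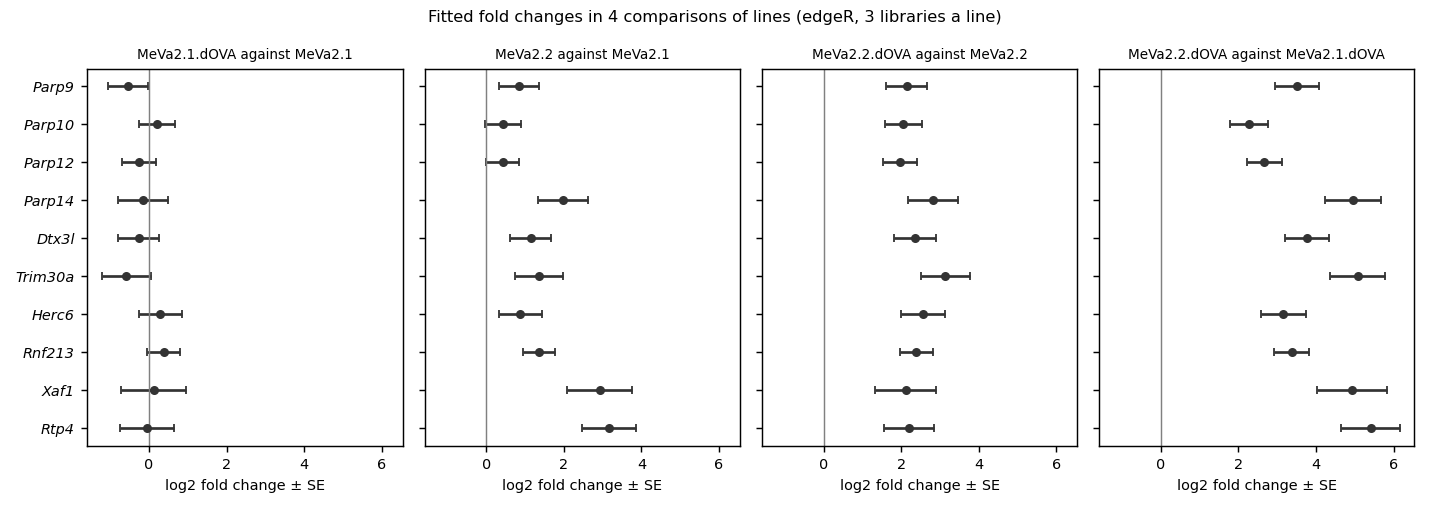
Log2 fold change of each of the 10 genes in the comparisons between lines, with bars for ± 1 SE from edgeR's fit. In the MeVa2.1 pair the points run from -0.59 to 0.37 on both sides of 0; the genes are taken as chosen on the MeVa2.2 pair, whose values and those that share its libraries are shown as a description.

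In MeVa2.2.dOVA against MeVa2.2, the comparison on which the genes are taken to have been chosen, the log2 fold changes ran from 1.98 for Parp12 to 3.14 for Trim30a, with a median of 2.28 against -0.02 over all genes. Parp14 stood at 2.82, Herc6 at 2.57, Rnf213 at 2.39 and Dtx3l at 2.36. The libraries of these lines did not overlap for any of the 10 genes, where 9.83% of all genes were higher without overlap. The count past an adjusted p of 0.05 was 5 of 10 (Parp12, Dtx3l, Trim30a, Herc6 and Rnf213), where 0.422% of all genes were called higher. Nothing is read from these counts, since this contrast is taken to have chosen the genes. The count rests on single libraries: it was 0 without MeVa2.2.dOVA replicate 1 or without MeVa2.2.dOVA replicate 2, and between 1 and 3 without any other library, MeVa2.1 libraries included.

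The ratio between these lines was highest for replicate 3, although the replicate numbers did not pair their libraries. Between same-numbered libraries the MeVa2.2.dOVA level was 1.25 (Xaf1) to 3.26 (Rnf213) times that of MeVa2.2 for replicate 1 and 2.22 (Parp10) to 7.83 (Parp14) times for replicate 2. For replicate 3 it was 10.4 (Parp12) to 62.5 (Xaf1) times. The median ratio was 1.99, 3.36 and 21.4. Since the lines did not overlap for any of the 10 genes, each ratio had to exceed 1 however the libraries were numbered. At replicate 3 the ratio set the lowest MeVa2.2 library, for 9 of the 10 genes, against the highest of MeVa2.2.dOVA.

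MeVa2.2 against MeVa2.1, which shares the MeVa2.2 libraries with that comparison, gave positive log2 fold changes for all 10 genes and for 51.8% of all genes. They ran from 0.43 for Parp10 and Parp12 through 1.36 for Rnf213 and 1.98 for Parp14 to 2.92 for Xaf1 and 3.16 for Rtp4. Rtp4 alone was past the threshold, where 1.66% of all genes were called higher, and 2 genes did not overlap, where 11.4% of all genes were higher without overlap. Rtp4's call was lost without any 1 of the MeVa2.1 libraries or without MeVa2.2 replicate 1. Without MeVa2.2 replicate 3 the count was 4, and without MeVa2.2.dOVA replicate 3 it was 2.

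MeVa2.2.dOVA against MeVa2.1.dOVA shares the MeVa2.2.dOVA libraries and is again a description. The log2 fold changes were 5.41 for Rtp4, 5.08 for Trim30a, 4.96 for Parp14, 4.92 for Xaf1, 3.77 for Dtx3l, 3.52 for Parp9 and 3.38 for Rnf213. Herc6 followed at 3.16, Parp12 at 2.67 and Parp10 at 2.28. All 10 were past the threshold, where 4.81% of all genes were called higher, and none overlapped, where 16.0% of all genes were higher without overlap. In ratios of mean CPM, Parp10 was 5.05 times and Rtp4 43.5 times as high in MeVa2.2.dOVA. Rtp4, Trim30a, Parp14 and Xaf1, whose levels per kilobase were under 1 CPM per kb in both MeVa2.1 lines, had the highest folds here; Herc6 was also under that level and had a lower fold.

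The difference between the dOVA differences, MeVa2.1 pair less MeVa2.2 pair, was negative for all 10 genes, from -1.85 for Parp10 to -3.72 for Trim30a, and positive for 52.2% of all genes. By edgeR 0 of the 10 passed the threshold, where 0.0858% of all genes did. At an unadjusted p under 0.05 there were 9, against 8.49% of all genes, and DESeq2 called 5. This contrast contains the one taken to have chosen the genes and supports nothing about them.

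Within lines, the 10 genes moved together in the MeVa2.2 pair. MeVa2.2 replicate 1 was the highest of its line for all 10, where that held for 30.3% of all genes, and 9 of the 10 were lowest in replicate 3, the exception being Herc6. All 10 genes were above both MeVa2.1 lines in MeVa2.2 replicate 1, 7 were in replicate 2 and 2 were in replicate 3. The share of all genes was not counted for these numbers or for the lowest replicate, so they describe the libraries only. The ratio of replicate 1 to replicate 3 in MeVa2.2 ran from 1.95 for Parp12 to 13.6 for Xaf1. In MeVa2.2.dOVA the high library was replicate 3, the highest of all 12 libraries for all 10 genes, where that held for 11.2% of all genes. Every library of that line was above all others for these genes, so the highest had to be among them. The share over all genes is therefore not a like background, and this too is a description.

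Values of other cell markers in these libraries were as follows, and their part in the spread was not tested. In MeVa2.2 the 8 melanocyte markers summed to 58.3, 10.5 and 21.1 CPM in replicates 1 to 3, and the leukocyte markers to 13.4, 5.21 and 8.44. The 10 fibroblast markers summed to 4503, 2886 and 6416 CPM across MeVa2.2 and to 1622, 1690 and 6278 across MeVa2.2.dOVA, highest in replicate 3 of both lines. Of the 10 genes, 9 were at their lowest of the line in the former of these libraries, and all 10 were at their highest in the latter. Between these lines 9 of the 10 fibroblast markers had negative log2 fold changes in MeVa2.2.dOVA against MeVa2.2, with a median of -1.60. Of these markers edgeR called Dcn, Pdgfra and Thy1 lower, where 1.57% of all genes were called lower. In MeVa2.2.dOVA replicate 3 the leukocyte markers were at 5.46 CPM, the lowest of that line.

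**Figure D3:**
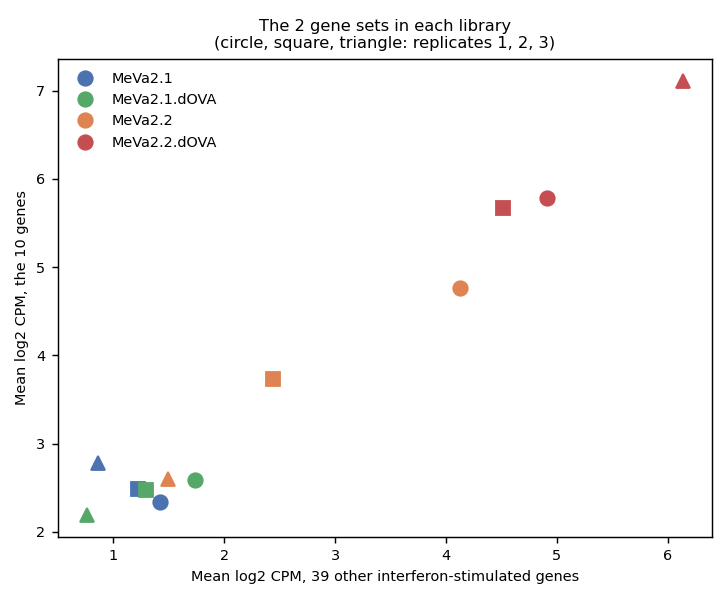
Mean log2 CPM of the 10 genes (vertical axis) against that of 39 other interferon-stimulated genes (horizontal axis); each point is a library, coloured by line and shaped by replicate number. The MeVa2.1 lines lie at 2.19 to 2.78 for the 10 genes with MeVa2.2 replicate 3 (2.598) among them, and MeVa2.2.dOVA replicate 3 is highest on both axes, at 7.11 and 6.13.

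The mean log2 CPM of the 10 genes was 2.33, 2.49 and 2.78 in MeVa2.1 and 2.59, 2.47 and 2.19 in its dOVA counterpart, against 4.76, 3.74 and 2.598 across MeVa2.2 and 5.78, 5.67 and 7.11 across MeVa2.2.dOVA. MeVa2.2 replicate 3 thus lay inside the range of the MeVa2.1 lines and replicates 1 and 2 above it. Among the 45 pairs of genes, Pearson's r of log2 CPM was 0.883 to 0.995 over the 6 libraries of the MeVa2.2 pair. Over the 6 libraries of the MeVa2.1 pair it ran from -0.84 (Parp10 with Rtp4) to 0.996 (Parp9 with Parp12), with a median of 0.042 and 25 of 45 pairs positive. With each line's mean removed, the median was 0.902 in the MeVa2.2 pair and 0.084 in the MeVa2.1 pair. These correlations describe libraries that share depth and line, and in the MeVa2.1 pair Rtp4 had 10 to 68 counts per library and Xaf1 15 to 46. Over all 12 libraries Dtx3l followed the mean of the other 9 genes most closely (r = 0.993) and Parp10 least (0.927).

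The genes most like the set, by r of log2 CPM with the set's mean z-score over the 12 libraries, were Oas2 (0.984), Oas1b (0.984), Oas3 (0.983), Trim21 (0.982), Gbp3 (0.982), Eif2ak2 (0.980), Igtp (0.978) and Trim34a (0.978). Oas2 and Oas3, which make the activator of RNase L, were listed at 0 in all MeVa2.1.dOVA libraries and averaged 16.2 and 8.08 CPM in MeVa2.2.dOVA. Eif2ak2, the double-stranded RNA kinase PKR, averaged 28.2 CPM in MeVa2.1 and 158 in MeVa2.2.dOVA.

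The relatives of the 10 genes were described from lists chosen with earlier results of these data known. Of 12 other PARP family genes, edgeR and DESeq2 called 0 in MeVa2.1.dOVA against MeVa2.1. At an unadjusted p under 0.05 there were 2, against 11.2% of all genes: Parp16 at -1.35 and Tiparp at 0.89 on the log2 scale. In MeVa2.2.dOVA against MeVa2.2 edgeR and DESeq2 again called 0, with 1 at an unadjusted p under 0.05, against 16.4% of all genes. The median log2 fold change in that comparison was 0.38 against 2.28 for the 10 genes. In MeVa2.2.dOVA against MeVa2.1.dOVA edgeR called Parp16 higher and Tiparp lower, where it called 11.3% of all genes in either direction. DESeq2 called 3 higher and 1 lower, where it called 2380 genes in all. The replicate block gave 5 higher and 1 lower, where it called 3079 of the 13985 genes. Zc3hav1, the antiviral zinc-finger PARP, stood at 119 to 464 CPM across MeVa2.2 and 464 to 552 across MeVa2.2.dOVA. Parp1, the DNA-damage PARP, averaged 110 ± 62.7 and 75.9 ± 37.6 CPM there (SD, n = 3).

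The other TRIM ligases linked to innate immunity lay closer to the 10 genes. In MeVa2.2.dOVA against MeVa2.2 all 8 tested had positive log2 fold changes, with a median of 1.65, and 7 were higher without overlap, as were 9.83% of all genes. However, edgeR called 0, with 7 at an unadjusted p under 0.05, against 16.4% of all genes. DESeq2 called 6 of the 8, where it called 950 genes in either direction. In MeVa2.2.dOVA against MeVa2.1.dOVA 7 of the 8 rose by edgeR, where 4.81% of all genes were called higher. Trim25, the ligase of the RNA sensor RIG-I, averaged 44.9 ± 14.5 CPM in MeVa2.1.dOVA and 145 ± 44.1 in MeVa2.2.dOVA (SD, n = 3). Of the 7 other DELTEX and HERC ligases tested, edgeR called 0 higher in that comparison, where it called 4.81% of all genes higher. DESeq2 and the replicate block each called 1 higher. In either direction DESeq2 called 2380 genes and the block 3079 of the 13985. Herc3 fell, with a log2 fold change of -5.33 (SE 0.95, adjusted p = 0.00463, edgeR). Herc3 averaged 40.1 CPM in MeVa2.1, 16.2 in its dOVA counterpart, 3.68 across MeVa2.2 and 0.375 across MeVa2.2.dOVA, the reverse of the order of Herc6.

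**Figure D4:**
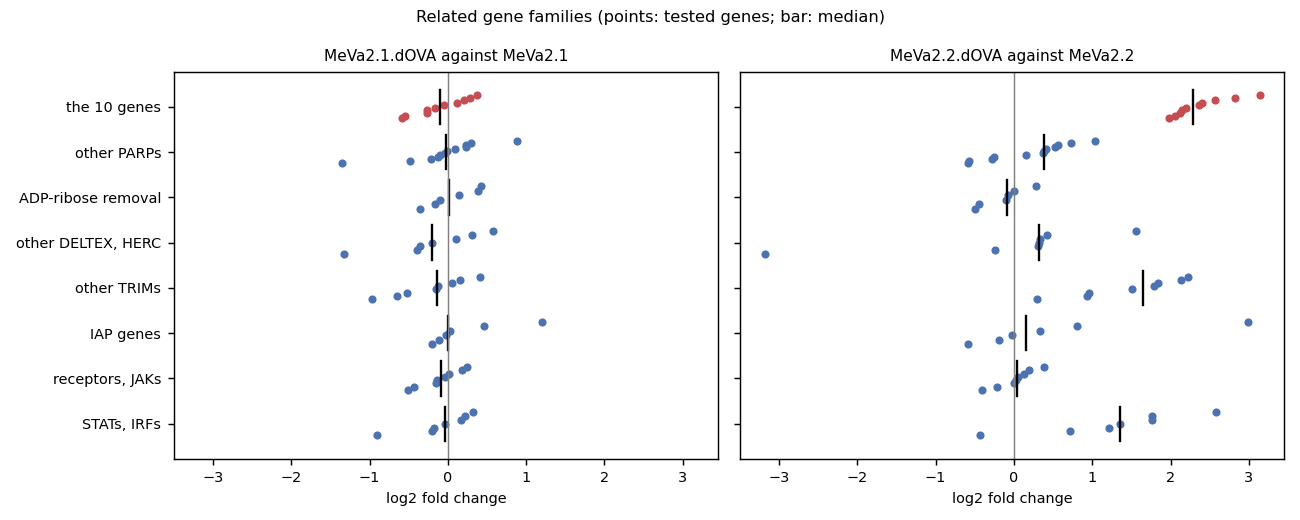
Log2 fold changes of the 10 genes and of their listed relatives in MeVa2.1.dOVA against MeVa2.1 and in MeVa2.2.dOVA against MeVa2.2; each point is a gene and the bar is the median of its list. In the MeVa2.2 pair the medians are 2.28 for the 10 genes, 1.65 for the other TRIM ligases and 0.38 for the other PARPs, and in the MeVa2.1 pair they are near 0.

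Upstream of these genes, the 8 receptor and JAK genes tested had a median log2 fold change of 0.04 in MeVa2.2.dOVA against MeVa2.2. Both edgeR and DESeq2 called 0 of them, with 1 at an unadjusted p under 0.05, against 16.4% of all genes. In MeVa2.2.dOVA against MeVa2.1.dOVA the receptor gene Ifngr2 rose (log2 fold change 1.03, adjusted p = 0.0444, edgeR) and the kinase gene Tyk2 fell (-1.19, adjusted p = 0.0400, edgeR). Tyk2 was also called lower in MeVa2.2 against MeVa2.1 (-1.49, adjusted p = 0.0296, edgeR). Of 7 STAT and IRF factors, 4 rose in MeVa2.2.dOVA against MeVa2.1.dOVA, where 4.81% of all genes were called higher, among them Irf7 and Irf9. Irf7, which amplifies interferon production, read 0.65, 1.04 and 0.81 CPM in MeVa2.1. In MeVa2.2 it read 22.7, 8.27 and 2.13, and in MeVa2.2.dOVA 29.3, 23.8 and 152. Of 5 genes that conjugate or remove ISG15, 4 rose in the same comparison, against the same 4.81%: Isg15, Uba7, Usp18 and Herc6. Usp18, which removes ISG15, had 0 to 2 counts per library in both MeVa2.1 lines. It had 540, 175 and 35 across MeVa2.2 and 583 to 6167 in MeVa2.2.dOVA. Irf7, Irf9 and Usp18 were also called higher in MeVa2.2 against MeVa2.1, where 1.66% of all genes were. In MeVa2.2.dOVA against MeVa2.2 edgeR called 0 of the 7 STAT and IRF factors and, of the ISG15 genes, Herc6 alone. DESeq2 called 4 and 2 there, where it called 950 genes in either direction.

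Of 39 other interferon-stimulated genes tested, which include IRF and ISG15 genes named above, 32 rose in MeVa2.2.dOVA against MeVa2.1.dOVA, where 4.81% of all genes were called higher. Some of these, Oas2 and Oas3 among them, had almost no counts outside MeVa2.2.dOVA. Oas2 had 1, 0 and 15 counts in MeVa2.1, MeVa2.1.dOVA and MeVa2.2, against 1494 in MeVa2.2.dOVA. Such genes could pass the low-count filter only through the line where they are high, so the count is a description. In MeVa2.1.dOVA against MeVa2.1 edgeR called 0 of the 39, with 1 at an unadjusted p under 0.05 and 0 by DESeq2. With the replicate number as a block, edgeR called 1 of them higher in MeVa2.1.dOVA, against 364 of the 13985 genes in either direction. It was the chemokine gene Cxcl10 (log2 fold change 2.08, SE 0.33, adjusted p = 0.0114, edgeR), named after its values were seen. This block was shared by all lines, although the numbers did not pair the MeVa2.2 lines. Cxcl10 read 8.37, 3.85 and 1.24 CPM in MeVa2.1 and 30.2, 17.9 and 5.73 in MeVa2.1.dOVA, so it was higher at each number although the lines overlapped. None of the 10 genes was called with that block. The 13 listed interferon genes had 0 counts in both MeVa2.1 lines, which allows up to 0.0409 CPM in MeVa2.1 and 0.0439 in MeVa2.1.dOVA over the libraries of a line, for counting error only. They had 9 counts across MeVa2.2 and 25 across MeVa2.2.dOVA, of which 5 and 13 were Ifnb1, the gene of interferon beta.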

How the data were processed

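RNA was sequenced from 12 libraries of 4 untreated lines with a stranded mRNA kit, per the labels' protocols. The deposited values are raw read counts per Ensembl gene, 1 file per library; STAR 2.6.0c, HTSeq 0.10.0, DESeq2 1.30.1 and GRCm38 are named in the submitters' processing notes, without the strand setting. Tally lines that name no gene (35.78 to 40.01% of reads, mostly of low mapping quality) were left out, so reads that fit near-identical genes are undercounted. Of 55471 gene IDs, 55144 had a symbol.

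Levels are CPM over all gene counts. Tests used edgeR 4.0.16 (R 4.3.3): low counts filtered by line, TMM scaling, 1 mean per line over all 12 libraries, a quasi-likelihood test and Benjamini-Hochberg adjustment over 13985 genes, which include all 10 described here, at 0.05. The procedure was tested on simulated data. Alternatives were DESeq2 1.42.0, other scalings, no filter, the 2 compared lines alone, a replicate block over all 12 libraries and leaving out each library. No replicates agreed within sampling noise (lowest chi-square per degree of freedom 27.35). Counting intervals cover counting error only.

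The genes and lists were chosen with earlier results of these data known. Named genes are the 10, the 8 most alike in pattern, any gene of the short lists, and Cxcl10, a list gene outside that rule that was named after its values were seen. Same-numbered libraries deviated together in MeVa2.1.dOVA and MeVa2.1 (r of 0.503, 0.488 and 0.534 across genes). By the rule that every r exceed 0.1 the numbers pair these libraries, and also those of MeVa2.2 and MeVa2.1 (0.429, 0.405 and 0.328). Those of MeVa2.2.dOVA and MeVa2.1.dOVA only just met the rule (0.105, 0.516 and 0.416). There MeVa2.2.dOVA replicate 1 correlated best with MeVa2.1.dOVA replicate 2, so that pairing is doubtful. The libraries of MeVa2.2 and MeVa2.2.dOVA did not meet the rule (0.082, 0.640 and 0.521). What a replicate number means is not labelled.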

Additional observations from a re-analysis of the deposited data

How the results depend on the processing

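In MeVa2.1.dOVA against MeVa2.1, 0 of the 10 genes were called in any of the 18 alternatives, the replicate block included. Signs turned 8 times, each on leaving out 1 library: Xaf1 (-0.041) and Rtp4 (0.037) without MeVa2.1 replicate 1, Dtx3l (0.15) and Rtp4 (0.11) without MeVa2.1 replicate 3, Parp10 (-0.072), Xaf1 (-0.34) and Rtp4 (0.32) without MeVa2.1.dOVA replicate 2, and Parp14 (0.19) without MeVa2.1.dOVA replicate 3. Over all such omissions Parp10 ran from -0.072 to 0.34, Parp14 from -0.42 to 0.19, Dtx3l from -0.48 to 0.15, Xaf1 from -0.34 to 0.45 and Rtp4 from -0.60 to 0.32. The cause was not tested.

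In MeVa2.2.dOVA against MeVa2.2 the count of 5 was 2 with library totals alone, 10 with no filter, 9 by DESeq2 and 0 in the 2 lines only. Leaving out 1 library gave 0 to 3. With the replicate block it was 9, though these numbers share only a label: the r of replicate 1 was 0.082 and it correlated best with another number. In MeVa2.2 against MeVa2.1 the count of 1 was 4 with no filter, 4 by DESeq2 and 0 in the 2 lines only, with 0 to 4 on leaving out 1 library. In MeVa2.2.dOVA against MeVa2.1.dOVA the count stayed at 9 to 10. The difference of the differences gave 6 with no filter and 5 by DESeq2, and 0 on leaving out any 1 library. The block moved the count of all genes called in MeVa2.1.dOVA against MeVa2.1 from 68 to 364 and changed no other call count of the 10 genes. Low counts of Xaf1, Rtp4 and Trim30a in the MeVa2.1 lines limit what could be seen there.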
